A study of Mus musculus with 7 samples.

Results

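Myosins are motors that walk along or pull on actin filaments. The transcripts of 10 myosin heavy chain genes, Myo5a, Myo1e, Myo1f, Myo1g, Myo9b, Myo6, Myo7a, Myo5c, Myh9 and Myo10, were followed in microglia found inside a wild-type graft and in microglia of the cortex beside it. The genes were taken by name, and all 10 were found among the 55341 gene names of the count table. Myo5a was chosen because of its difference between these same libraries, and the other 9 were listed beside it with earlier results of these data known. Their differences between the groups are therefore given as a description, without a test, and the question was whether the change in Myo5a was shared by other myosins.

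The cells were CD11b+CD45low microglia, labelled as primary microglia, sorted from female 5xFAD mice on a C57BL/6 background. These mice carry mutant human APP and PS1 under the neuron-specific Thy1 promoter, and libraries of both groups share this genotype, an age of 14 weeks and a cortical injection of embryonic wild-type cortical cells 4 weeks earlier. There were 3 libraries of microglia taken out of the graft (inside graft 1 to 3) and 4 of microglia from small cortical pieces near it (outside graft 1 to 4, the controls). The labels do not say how many mice gave a library, so the errors and P values below measure the spread between these libraries. In bulk RNA, fewer cells of a type and less RNA per cell cannot be told apart.

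Each myosin heavy chain has a motor domain that binds ATP and actin, and a tail that sets the cargo or the membrane to which the motor is tied. Class V myosins such as Myo5a carry vesicles and organelles in steps along actin, and their best known cargo is the melanosome of pigment cells. Myo5a is also abundant in neurons, where it moves organelles into dendritic spines. Single-headed class I myosins link actin to membranes, class II myosins such as Myh9 form contractile filaments, and the others serve uptake, adhesion or filopodia. Macrophages use several of these motors at once when they crawl and when they engulf particles.

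The shared part of the motors is shown by the 24 coding bases of the P-loop, the stretch of the motor domain that holds the phosphates of ATP. The bases were found by searching the translated longest coding sequence of each gene in GENCODE M21 (GRCm38) for the P-loop pattern, with 1 match in each, and capitals mark the bases that differ from Myo5a. They are printed 5′ to 3′ to show how far the members have diverged at the level that reads are aligned.
Myo5a: ggagagtcaggcgcagggaagacg
Myo5c: ggagaAtcaggAgcCgggaagacT
Myh9: ggGgagtcTggAgcagggaagacA
Myo6: ggagaAtcaggAgcTggCaaAacA
Myo7a: ggGgagtcGggAgcTggCaagacA
Myo1g: ggGgagAGTggGgcagggaagacA
Myo1f: ggGgagAGCggAgcTgggaagacA
Myo10: ggGgaAAGCggAgcTgggaaAacg
Myo9b: ggTgagAGTggcTcTggCaagacA
Myo1e: ggTgaAAGTggTgcTggAaagacA

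In Myo5a these are coding bases 487 to 510 of 5565. Myo5c and Myh9 shared 20 of the 24 bases with it, Myo6, Myo7a and Myo1g 18, Myo1f 17, Myo9b and Myo10 16, and Myo1e 15. The 8 codons encoded the same residues as in Myo5a in all members apart from Myo9b, in which 7 of 8 did, and most of these residues are fixed by the pattern searched. Even in this conserved stretch the genes thus differed at 4 bases or more from Myo5a. Over whole transcripts, 0 of the 15005 distinct windows of 75 bases in Myo5a occurred in a transcript of another gene on either strand, and the same held for 0 windows in Myo1e, Myo1f, Myo1g, Myo6, Myo5c and Myo10. In Myh9, 48 of 13157 windows (0.365%) occurred also in its class II relative Myh10, in Myo9b 42 of 7986 (0.526%) in the antisense neighbour Haus8, and in Myo7a 16 of 8802 (0.182%) in other genes. The search covered exact matches in annotated transcripts only. The counts are per gene, so the 6 protein-coding transcripts annotated for Myo5a, which include splice forms of its tail, were not separated.

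Between 23241114 and 25882122 reads were counted inside and between 18644807 and 24599193 outside the graft. Levels are given as CPM, the count of a gene relative to the library's total after TMM scaling (trimmed mean of M values). This scaling adjusts for depth by treating all genes of a library alike. It does not remove the RNA of other cell types from a library. The microglia markers were high in both groups: P2ry12, a purine receptor, had between 4360 and 5950 CPM inside and between 6060 and 7440 CPM outside the graft, and Tmem119 between 2600 and 2970 CPM inside and between 2940 and 4060 CPM outside. Both were named after their values were seen. Of the 10 microglia genes listed, 9 had a lower fitted value inside (median log2 fold change -0.17) and 0 passed the test in voomWithQualityWeights at 0.05, with 1 higher and 4 lower at an unadjusted P below 0.05. The sort genes Itgam (CD11b) and Ptprc (CD45) had between 311 and 351 CPM and between 530 and 567 CPM inside, and between 260 and 389 CPM and between 353 and 477 CPM outside. Of 15257 genes that passed the filter on low counts, limma's voomWithQualityWeights called 75 (0.492%) at an adjusted P below 0.05, 66 higher (0.433%) and 9 lower (0.059%) inside the graft. At 0.01 it called 3 genes (0.0197%). At an unadjusted P below 0.05 there were 1858 genes (12.2%), 1140 higher (7.47%) and 718 lower (4.71%), and the unadjusted counts of each gene list given here stand against these shares. The median log2 fold change of all genes tested was -0.01.

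Myo5a (ENSMUSG00000034593.16) spans bases 75071015 to 75223688 of chromosome 9 in GRCm38 (plus strand), and none of the 42 exons left after merging its transcripts overlapped an exon of another gene. It had 51.8, 72.4 and 74.3 CPM in inside graft 1, 2 and 3, and 22.6, 24.1, 18 and 17.4 CPM in outside graft 1, 2, 3 and 4. The groups did not overlap, and the lowest inside value was more than 2 times the highest outside value. The mean was 66.1 ± 12.5 CPM (SD, n = 3) inside and 20.5 ± 3.35 CPM (SD, n = 4) outside, and the fitted log2 fold change was 1.74 (standard error 0.19), or 3.34-fold. These values rested on at least 424 reads in each library. The log2 fold change ran from 1.6 without outside graft 4 to 1.94 without inside graft 1.

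Of the 9 other members, 8 passed the filter on low counts, and Myo1e came closest to Myo5a. Their log2 fold changes ran from -0.79 to 1.11 with a median of 0.31, against -0.01 for all genes tested. Of the 8, 6 had a higher and 2 a lower fitted value inside the graft, and 7 were below 1 in absolute size. Myo5a exceeded the next member by 0.63 on the log2 scale. At an adjusted P below 0.05, 1 of the 9 members that passed the filter was called, beside 0.492% of all genes, and it was Myo5a. Since the members were chosen with this contrast known, nothing is read from this count. Leaving out outside graft 3 or outside graft 4 gave 0 members, and 1 gene of the whole table, in each case, while Myo1e joined Myo5a when outside graft 2 was left out, which gave 2.

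**Figure D1:**
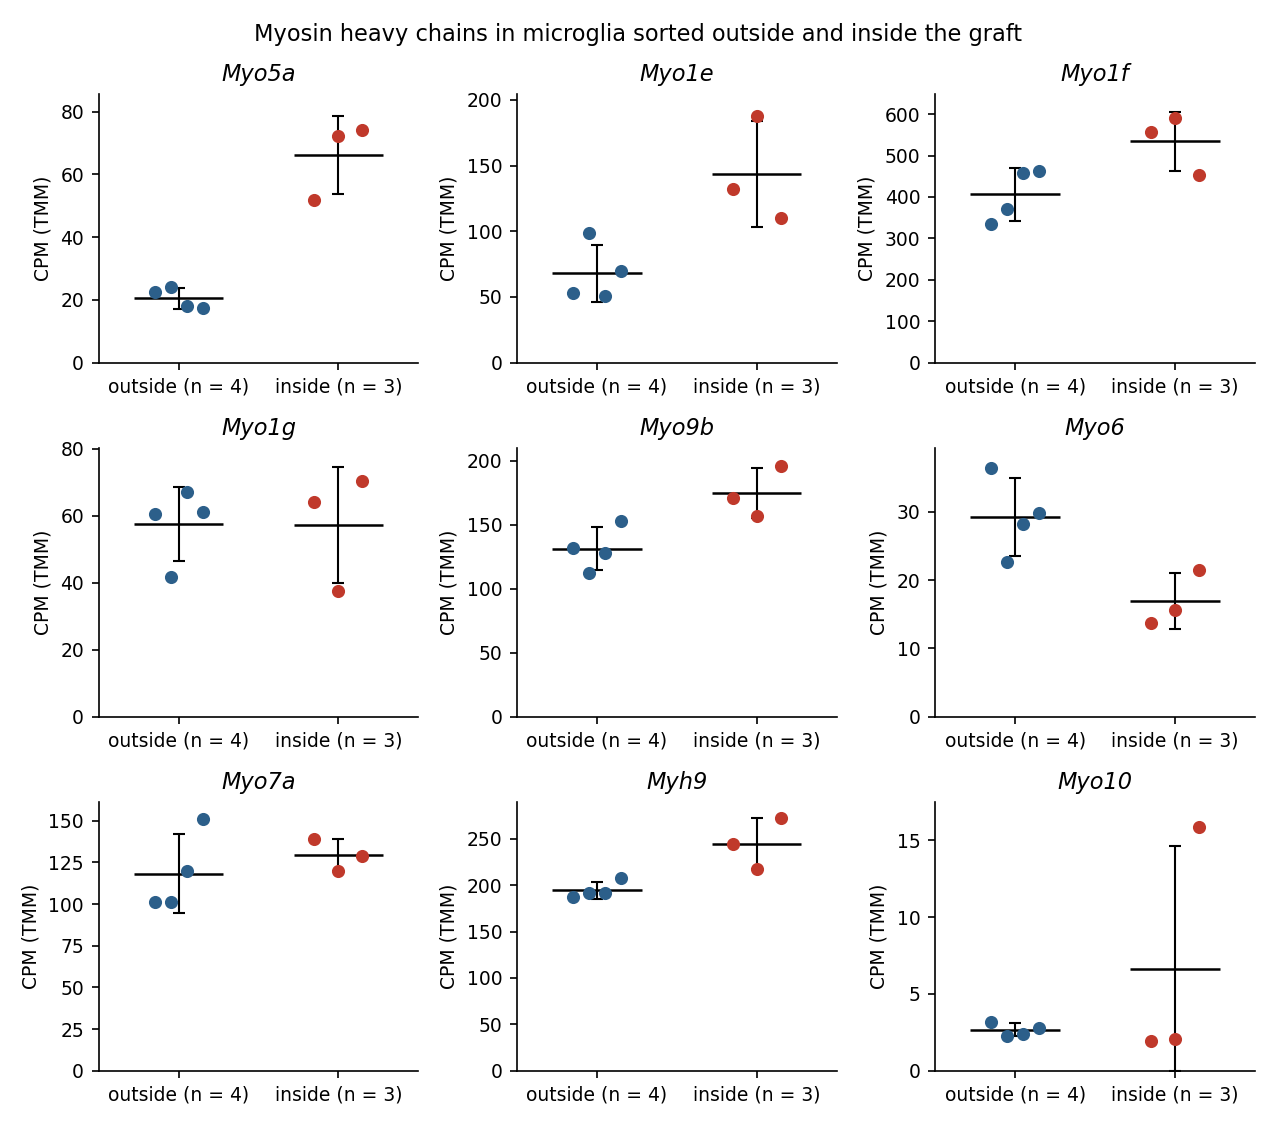
TMM-scaled CPM of the 9 myosin members that passed the filter on low counts, with 1 point per library, outside (blue, n = 4) and inside (red, n = 3) the graft. Horizontal lines are group means and bars 1 SD, each axis starts at 0, and the lower bar of Myo10 is clipped at 0. Myo5a lies between 17.4 and 24.1 CPM outside and between 51.8 and 74.3 CPM inside, Myo6 lies lower inside, and Myo10 is high in 1 inside library alone.

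The class I myosins link the actin cortex to the plasma membrane. Myo1e (ENSMUSG00000032220.10; chromosome 9, plus strand, from 70207350 to 70399766), a long-tailed class I motor found at sites of endocytosis and phagocytosis, had the second largest difference. It had 132, 188 and 110 CPM in inside graft 1, 2 and 3, and 53.1, 98.3, 51.1 and 69.8 CPM in outside graft 1, 2, 3 and 4. The groups did not overlap, but the gap was small, since inside graft 3 lay just above outside graft 2. The mean was 144 ± 40.3 CPM (SD, n = 3) inside and 68.1 ± 21.8 CPM (SD, n = 4) outside. The log2 fold change was 1.11 (standard error 0.22) and ran from 0.87 to 1.27 with each library left out.

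Myo1f (ENSMUSG00000024300.17; chromosome 17, plus strand, from 33555707 to 33607764), the close relative of Myo1e in blood and immune cells, was the most abundant member. It had 557, 591 and 454 CPM in inside graft 1, 2 and 3, and 334, 371, 459 and 462 CPM in outside graft 1, 2, 3 and 4. Inside graft 3 lay below outside graft 3 and 4, so the groups overlapped. The log2 fold change was 0.32 (standard error 0.12), and its sign was kept in all 16 alternatives. Myo1g (ENSMUSG00000020437.12; chromosome 11, minus strand, from 6506548 to 6520965), a short-tailed class I motor of leukocytes, had 64.1, 37.6 and 70.2 CPM inside and 60.4, 41.7, 67.1 and 61.1 CPM outside, in the order of the library numbers. The groups lay on top of each other, with means of 57.3 ± 17.3 CPM (SD, n = 3) and 57.6 ± 11 CPM (SD, n = 4). Its log2 fold change was -0.08 (standard error 0.22) and had this sign in 12 of 16 alternatives.

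Myo9b (ENSMUSG00000004677.17; chromosome 8, plus strand, from 71272714 to 71360713) is a motor that also carries a signalling domain in its tail. It had 171, 157 and 196 CPM in inside graft 1, 2 and 3, and 132, 112, 128 and 153 CPM in outside graft 1, 2, 3 and 4. The lowest inside library was just above the highest outside library. On the log2 scale the difference was 0.37 (standard error 0.13). Of its exon bases, 116 overlapped Haus8 on the other strand, and strand was not used in counting.

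Myh9 (ENSMUSG00000022443.17; chromosome 15, minus strand, from 77760587 to 77842175) encodes the heavy chain of non-muscle myosin IIA, the contractile motor of the cell cortex. It had 245, 217 and 272 CPM in inside graft 1, 2 and 3, and 187, 192, 192 and 208 CPM in outside graft 1, 2, 3 and 4. The groups did not overlap, yet the difference was small, at 0.30 on the log2 scale (standard error 0.10). Its 4 outside libraries were the most even among the members tested, with an SD of 9.04 CPM around 195 CPM.

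Myo6 (ENSMUSG00000033577.18; chromosome 9, plus strand, from 80165031 to 80311729) walks towards the minus end of actin filaments, against the direction of the other myosins, and serves endocytosis and autophagy. It lay on the other side of 0 from Myo5a. It had 13.7, 15.7 and 21.5 CPM in inside graft 1, 2 and 3, and 36.4, 22.6, 28.2 and 29.8 CPM in outside graft 1, 2, 3 and 4. Every inside library lay below every outside library, with inside graft 3 just under outside graft 2. The mean was 17.0 ± 4.04 CPM (SD, n = 3) inside and 29.3 ± 5.69 CPM (SD, n = 4) outside. On the log2 scale the difference was -0.79 (standard error 0.21), between -0.95 and -0.61 as each library was left out.

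Myo7a (ENSMUSG00000030761.15; chromosome 7, minus strand, from 98051060 to 98119524), known for hair cells of the ear and for the movement of phagosomes and melanosomes in the retinal pigment epithelium, had 139, 120 and 129 CPM inside and 101, 101, 120 and 151 CPM outside, in the order of the library numbers. Its outside libraries spanned all of its inside libraries. The difference was 0.06 on the log2 scale (standard error 0.15).

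Myo10 (ENSMUSG00000022272.17; chromosome 15, plus strand, from 25622525 to 25813673), a motor of filopodia, had 1.92, 2.09 and 15.9 CPM in inside graft 1, 2 and 3. The outside libraries had between 2.27 and 3.20 CPM, above inside graft 1 and 2 but far below inside graft 3. A single library thus set the inside mean of 6.64 CPM: it held 378 reads of Myo10 against 47 to 69 in the other 6. The log2 fold change was 0.48 (standard error 0.63), and -0.36 without inside graft 3. Myo5c (ENSMUSG00000033590.8; chromosome 9, plus strand, from 75232020 to 75305451), the class V myosin of glands and other epithelia, had 2 reads in outside graft 1 and 0 in the other 6 libraries, where 0 reads allow up to 3, or between 0.118 and 0.133 CPM per library. This limit covers counting error only. Of the class V genes, Myo5b had at most 0.213 CPM in a library, so that Myo5a held nearly all class V reads.

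**Figure D2:**
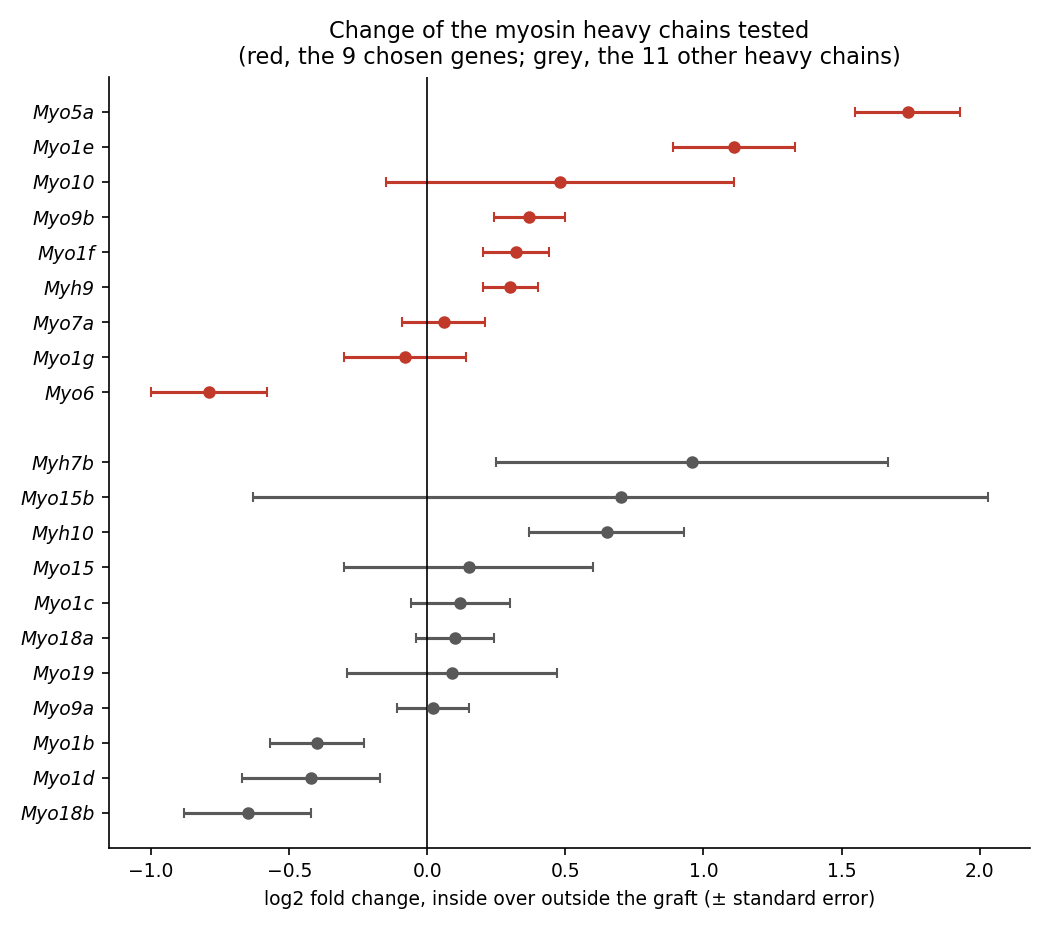
Fold change on the log2 scale (inside over outside graft) with its standard error in voomWithQualityWeights, for the 9 members that passed the filter (red) and the 11 other myosin heavy chains that did (grey). Myo5a at 1.74 stands above Myo1e at 1.11 and all others, and Myo6 and Myo18b have the lowest values, -0.79 and -0.65.

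In 4 of the 9 members every inside library exceeded every outside library (Myo5a, Myo1e, Myo9b and Myh9), and in 1 all were below (Myo6). Over all genes tested the shares were 5.65% and 5.05%. As above, nothing is read from these counts.

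Levels of different genes were compared only per length, as CPM per kilobase of exon (RPKM). Outside the graft the order was Myo1f (81.8 ± 12.9 RPKM, SD, n = 4), Myo9b (17.5), Myh9 (15), Myo7a (13.8), Myo1e (11.9), Myo1g (8.27), Myo6 (2.42), Myo5a (1.39 ± 0.226) and Myo10 (0.264), with Myo5c last. Myh9, Myo7a, Myo1e and Myo1g were not cleanly ordered: Myh9, Myo7a and Myo1e each exceeded the next in 3 of 4 libraries. Myo6 was above Myo5a in 4 of 4 libraries. Inside the graft the order was Myo1f (107 ± 14.4 RPKM, SD, n = 3), Myo1e (25.2), Myo9b (23.3), Myh9 (18.9), Myo7a (15.1), Myo1g (8.24), Myo5a (4.47 ± 0.843), Myo6 (1.40) and Myo10 (0.656). Here Myo5a was above Myo6 in 3 of 3 libraries, and Myo1e moved from the fifth to the second place but exceeded Myo9b in only 2 of 3. The exon length used is that of all transcripts merged, 14803 bases for Myo5a, and understates genes with long rare exons.

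Myo5a remained a minor heavy chain in both groups. As a share of the RPKM of 39 heavy chain genes, it made up 0.720 ± 0.186% (SD, n = 4) outside and 1.81 ± 0.383% (SD, n = 3) inside the graft. Myo1f alone made up 41.5 ± 2.77% outside and 43.2 ± 4.2% inside. The share of Myo1e was 6.15 ± 2.24% outside and 10.1 ± 2.55% inside, and that of Myo6 was 1.25 ± 0.314% outside and 0.570 ± 0.160% inside. The 10 members together held between 76.0 and 78.3% outside and between 80.8 and 84.7% inside.

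**Figure D3:**
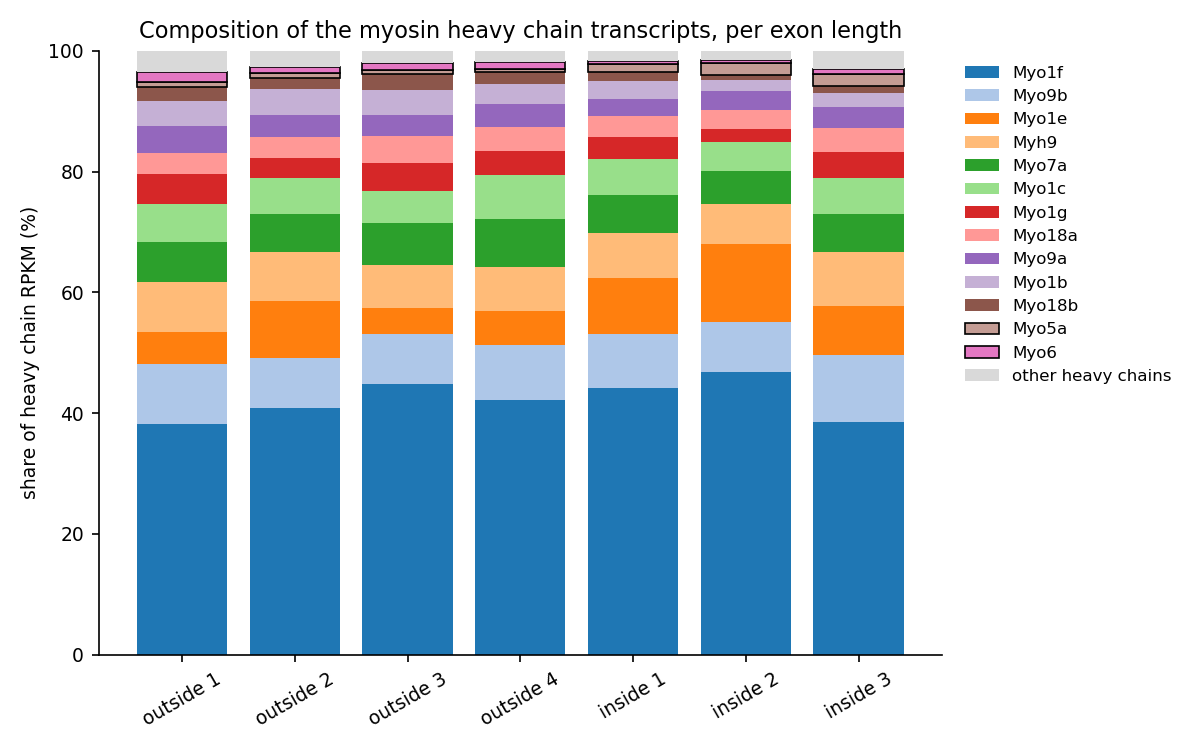
Share of the summed RPKM of 39 myosin heavy chain genes in each library (percent), for the 13 most abundant genes and the rest. Myo1f holds the largest share in each of the 7 libraries, and Myo5a (outlined) is a thin band that is wider in the inside libraries, at 1.38 to 2.12%, than outside, at 0.532 to 0.891%.

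Of the 29 other heavy chain genes listed, 11 passed the filter, and voomWithQualityWeights with Benjamini-Hochberg adjustment called 0 of them at 0.05. At an unadjusted P below 0.05 there were 1 higher and 2 lower of the 11, beside 7.47% and 4.71% of all genes, and edgeR's quasi-likelihood test and the DESeq2 Wald test also called 0. Their median log2 fold change was 0.10. Myh10, the heavy chain of non-muscle myosin IIB, had 18.8 ± 5.60 CPM (SD, n = 3) inside and 12.9 ± 3.54 CPM (SD, n = 4) outside (log2 fold change 0.65, adjusted P = 0.37). Myo18b had 30.4 ± 9.05 and 46.0 ± 10.1 CPM (log2 fold change -0.65, adjusted P = 0.276), and Myo1d, a short-tailed class I myosin, 9.99 ± 0.727 and 14.4 ± 2.68 CPM (log2 fold change -0.42, adjusted P = 0.556). Each of these 3 genes overlapped between the groups.

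The light chains bind the neck of the heavy chains, and kinases and phosphatases set the activity of class II motors. Of 30 such genes listed, 18 passed the filter and 0 were called at 0.05 in voomWithQualityWeights, in edgeR or in DESeq2, with 2 higher and 1 lower at an unadjusted P below 0.05 (7.47% and 4.71% of all genes). Their median log2 fold change was 0.15 and the range was -0.47 to 0.44. The extremes were Unc45a, a chaperone of myosin heads (-0.47, adjusted P = 0.507), Ppp1cb, a catalytic subunit of myosin phosphatase (0.44, adjusted P = 0.287), and Rock1, a kinase that raises light chain phosphorylation (0.40, adjusted P = 0.204).

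Class V motors are tied to cargo by Rab GTPases, adaptor proteins and actin nucleators. Of 16 such partners, 12 passed the filter and 0 were called at 0.05 in voomWithQualityWeights, edgeR or DESeq2, with 0 higher and 2 lower at an unadjusted P below 0.05 (7.47% and 4.71% of all genes). Of the 12, 8 had a negative log2 fold change and the median was -0.09. Mlph, melanophilin, the adaptor between Rab27a and Myo5a on melanosomes, had 112, 108 and 110 CPM in inside graft 1, 2 and 3, and 147, 117, 169 and 138 CPM in outside graft 1, 2, 3 and 4. Its inside libraries lay below its outside libraries, on the other side of 0 from Myo5a (log2 fold change -0.39, adjusted P = 0.269). Spire1, an actin nucleator that acts with class V motors, had a log2 fold change of -0.37 (adjusted P = 0.2), and Rab3a one of -0.57 (adjusted P = 0.738) at 1.46 and 2.18 CPM. The GTPase Rab27a had 36.1 ± 4.92 CPM (SD, n = 3) inside and 28.7 ± 4.64 CPM (SD, n = 4) outside, and was named after its values were seen.

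Of the 7 cargo adaptors of Myo6, all passed the filter and 0 were called at 0.05 in voomWithQualityWeights or edgeR, with 2 higher and 0 lower at an unadjusted P below 0.05 (7.47% and 4.71% of all genes). DESeq2 called 1, Dab2, beside 420 of all 15257 genes (2.75%) in that test. Their median log2 fold change was 0.10. Optn, an autophagy receptor, had 15.1, 20 and 26.9 CPM inside and 0.107, 12.5, 5.51 and 7.86 CPM outside, in the order of the library numbers (log2 fold change 1.81, adjusted P = 0.288). Its groups did not overlap, and outside graft 1 was near 0. Dab2, an adaptor for clathrin-coated vesicles, had 59.4, 36.1 and 79.7 CPM inside and 35.3, 28.7, 22.9 and 29.0 CPM outside (log2 fold change 1.03, adjusted P = 0.0874). It was called at 0.05 when inside graft 2 was left out, a fit that called 1.29% of all genes. Lmtk2, a kinase that binds Myo6, had 1.81, 2.13 and 3.12 CPM inside and 0, 0.4, 2.49 and 1.13 CPM outside (log2 fold change 1.22, adjusted P = 0.633). Of the 7 adaptors 6 had a log2 fold change above 0, beside 48.3% of all genes tested. Among these, Tax1bp1 (0.01, standard error 0.12), Tom1 (0.08, standard error 0.19) and Gipc1 (0.10, standard error 0.16) lay within their error of 0. They were named after their values were seen, and no contrast with Myo6 is read from this count.

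The neighbours of Myo5a on chromosome 9 were set beside it. Within 200 kb on either side 14 other genes lie in full, of which 6 passed the filter. In voomWithQualityWeights 0 of the 6 were called at 0.05 (adjusted P from 0.706 to 0.969), beside 0.492% of all genes. An unadjusted P below 0.05 was found for 0 of the 6 (at least 0.244), beside 12.2% of all genes. At these shares nothing is read from 0 of 6 genes. Arpp19, an inhibitor of protein phosphatase 2A that ends 10701 bases before Myo5a, had a log2 fold change of 0.15 (standard error 0.12). Fam214a had 0.21 (standard error 0.20), Gnb5, a G protein beta subunit, 0.42 (standard error 0.69), and Mapk6, an atypical MAP kinase, 0.08 (standard error 0.19). The other 2 genes were Gm2981 (-0.16, standard error 0.86) and 4933433G15Rik (0.51, standard error 0.78), at 72 and 128 reads in all. Myo5c, which starts only 8331 bases after the end of Myo5a on the same strand, held the 2 reads given above, so that reads from beyond the end of Myo5a were not seen on its exons.

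**Figure D4:**
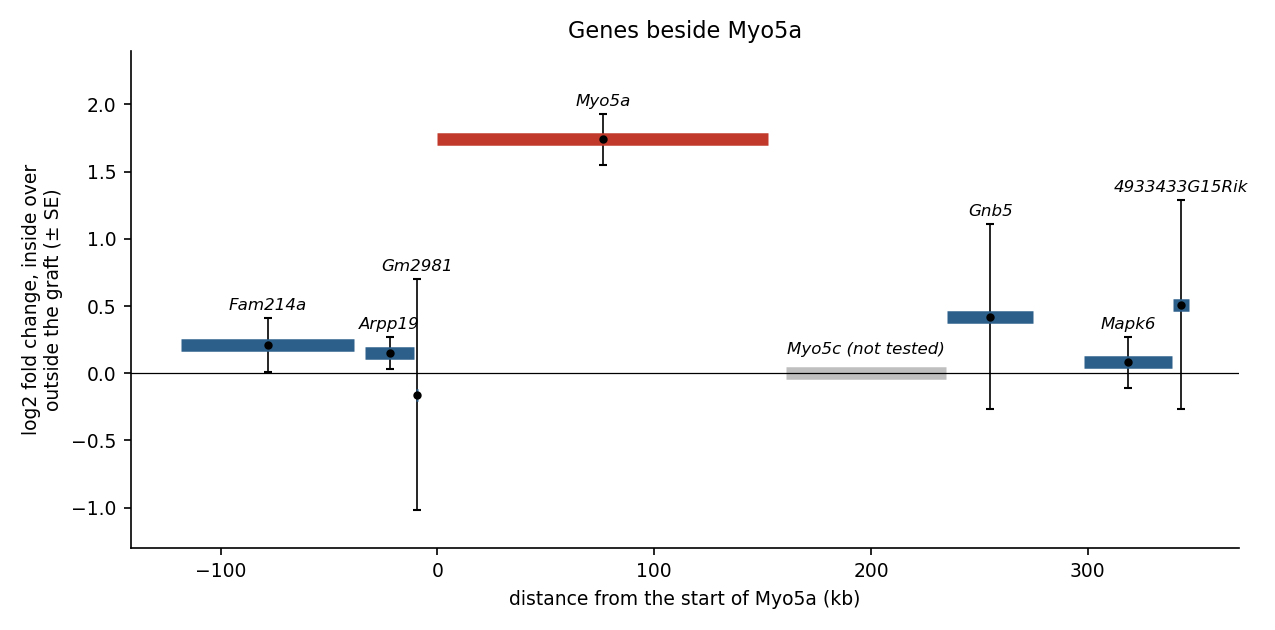
Fold change on the log2 scale (inside over outside graft) and its standard error, against the distance from the start of Myo5a in kb. Coloured bars span each gene, dots mark its middle, and Myo5c is drawn at 0 in grey because it was not tested. Myo5a lies at 1.74 and the 6 neighbours tested lie between -0.16 and 0.51, with standard errors of up to 0.86.

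The profile of Myo5a over the 7 libraries was compared with those of 8916 other genes with a mean of at least 10 CPM, by the root mean square difference of log2 CPM centred on each gene. The closest were Nceh1 (difference 0.275), an enzyme that splits cholesterol esters, Cd300lf (0.277), an inhibitory receptor of myeloid cells, Stmn1 (0.303), which destabilizes microtubules, Il2rg (0.314), the common gamma chain of cytokine receptors, and Anxa5 (0.328), an annexin that binds phosphatidylserine. Of these 5 genes 4 had an adjusted P below 0.05 in voomWithQualityWeights, beside 0.492% of all genes. They were chosen for their likeness to a gene chosen on this contrast, so this is a description and nothing is read from it. Among the members, Myo1e ranked 41st of the 8916 (difference 0.46) and Myo9b 493rd (0.696), while Myo6 was among the least alike, at place 8783 (1.26).

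Markers of other cells were not even between the groups. The 8 neutrophil genes summed to 7530, 794 and 15500 CPM in inside graft 1, 2 and 3, and to 0.64, 0.311, 359 and 18.1 CPM in outside graft 1, 2, 3 and 4. Their most abundant gene, S100a8, had 1950, 208 and 4080 CPM inside. The 9 monocyte genes, led by Chil3, summed to 665, 82.1 and 1370 CPM in the inside libraries and between 6.99 and 34.1 CPM outside, and the 8 proliferation genes, led by Top2a, to between 90.0 and 135 CPM inside and between 9.94 and 39.4 CPM outside. No gene of these 3 lists was at 0 in all inside libraries, while the granule genes Mpo and Elane and the monocyte gene F10 were at 0 in all outside libraries. Of the proliferation genes 8 of 8 had every inside library above every outside library (5.65% of all genes), and 2 of 8 were called at 0.05 (0.492% of all genes). In the same fit 0 of 6 neutrophil genes and 0 of 8 monocyte genes were called, with 4 and 2 higher at an unadjusted P below 0.05 (7.47% of all genes).

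The sums of the neutrophil, monocyte and proliferation genes all had the same order of the groups as Myo5a, with every inside library above every outside library. The monocyte sum was carried by Chil3, with 587, 67.6 and 1190 CPM inside and between 0 and 15 CPM outside. Of the 8 monocyte genes tested, 2 had every inside library above every outside library (5.65% of all genes), and the others overlapped. Beside the 51.8, 72.4 and 74.3 CPM of Myo5a, the neutrophil and monocyte sums of the inside libraries were lowest in inside graft 2 and highest in inside graft 3. The part of these cells in the level of Myo5a was not tested. Myo10 was high only in inside graft 3, the library with the highest sums of neutrophil and monocyte genes, and of the 8 lymphocyte and dendritic cell genes, led by Nkg7, at 26.7 CPM against 1.92 to 4.04 CPM in the other 6. Their part in Myo10 was not tested. Myo1g was lowest in inside graft 2, which had the lowest neutrophil and monocyte sums of the inside libraries, and outside graft 2 was nearly as low, at 41.7 CPM of Myo1g. Their part in Myo1g was not tested.

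The 12 neuronal genes, led by Snap25, summed to between 4.75 and 6.32 CPM inside and between 6.05 and 16.8 CPM outside. The defining neuronal gene Rbfox3 had 0.942, 1.38 and 2.65 CPM inside and between 0.845 and 1.92 CPM outside. Of the 3 neuronal genes tested it was the 1 with a higher fitted value inside, and 2 were lower (median log2 fold change -0.76). In voomWithQualityWeights 0 were called at 0.05. At an unadjusted P below 0.05, 0 were higher and 1, Syp (-1.81), was lower (7.47% and 4.71% of all genes). Of the neuronal genes 3 were at 0 in all inside libraries and 0 in all outside libraries. In the remaining lists the sums had a lower mean inside the graft: astrocytes (led by Slc1a3) 250 to 300 and 327 to 352 CPM, oligodendrocytes (Cnp) 156 to 160 and 156 to 165 CPM, endothelial cells (Pecam1) 30.7 to 40.4 and 37.5 to 61.2 CPM, and border-associated macrophages (Stab1) 396 to 651 and 533 to 633 CPM, inside and outside. The astrocyte sum was carried by Slc1a3, with 245 to 287 CPM inside and 320 to 347 CPM outside: of the 6 astrocyte genes tested 4 had a higher fitted value inside (median log2 fold change 1.32), with 0 called at 0.05, and 1 higher and 1 lower at an unadjusted P below 0.05 in voomWithQualityWeights. Likewise the sum of the last list was carried by Stab1: of its 8 genes tested 7 had a higher fitted value inside (median log2 fold change 3.89). In voomWithQualityWeights 0 were called at 0.05. At an unadjusted P below 0.05, 5 were higher and 1, Stab1, was lower (7.47% and 4.71% of all genes). In 2 of the 8 every inside library exceeded every outside library (5.65% of all genes). Mrc1, a gene of such macrophages, overlapped between the groups, with 61.2, 7.81 and 48.6 CPM inside and between 4.18 and 14.2 CPM outside. The endothelial sum was carried by Pecam1, with 20.7 ± 5.43 CPM (SD, n = 3) inside and 37.1 ± 6.65 CPM (SD, n = 4) outside. Of the 4 endothelial genes tested, 2 had a higher and 2 a lower fitted value inside (median log2 fold change -0.38). In voomWithQualityWeights 0 were called at 0.05, with 0 higher and 1, Pecam1, lower at an unadjusted P below 0.05 (7.47% and 4.71% of all genes). Mrc1, Rbfox3, Syp, Mpo, Elane and F10 were named after their values were seen. The part of these cells in the levels of the myosins was not tested.

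**Figure D5:**
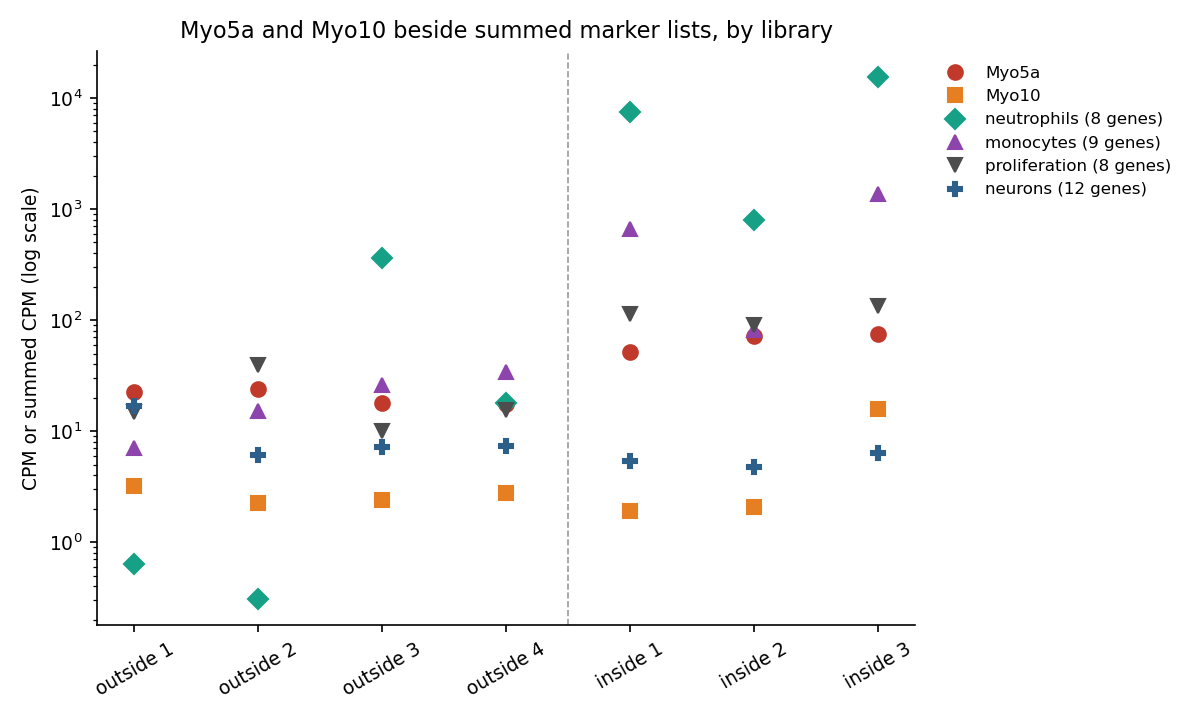
CPM of Myo5a and Myo10 and summed CPM of 4 marker lists in each library, on a log axis, outside (left of the dashed line) and inside the graft. Myo5a has 51.8, 72.4 and 74.3 CPM and the neutrophil sum 7530, 794 and 15500 CPM in inside graft 1, 2 and 3, and Myo10 is high only in inside graft 3.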

How the data were processed

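Microglia of 3 inside and 4 outside libraries were measured by bulk RNA-seq (amplified cDNA from a low-input kit, Nextera XT libraries, single reads). The authors aligned reads with STAR 2.7.2a to GRCm38.p6 (GENCODE M21) and deposited the counts of featureCounts 1.6.2, not normalized, for each gene name. Each read went to 1 gene, strand was not used and reads with several alignments were not counted, which lowers genes with near-identical copies. Totals ran from 18644807 to 25882122 counts, and amplified reads without molecular identifiers overstate the molecules sampled.

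From these counts, R 4.3.3 with edgeR 4.0.16, limma 3.58.1 and DESeq2 1.42.0 was used. filterByExpr by group left 15257 genes, which were scaled with TMM. Following the study's methods, groups were compared with voomWithQualityWeights, lmFit and eBayes, with Benjamini-Hochberg adjustment over all genes and thresholds of 0.01 and 0.05. Quality weights ran from 0.448 (outside graft 1) to 1.76 (outside graft 4). The members, lists and rules were chosen with earlier results of these data known. Named were the members, in each machinery list the genes past 0.05 and the 3 largest changes at a mean of at least 1 CPM, tested genes within 200 kb of Myo5a, the 5 most alike profiles, and the most abundant marker genes, of which that of microglia is not reported here. Replicates of a group differed by more than counting noise (chi-square per degree of freedom at least 17.8). In 5 sets of simulated counts for 15257 genes, voomWithQualityWeights found 31.5% of genes changed 2-fold and 65.8% changed 4-fold at 0.05, with 5.8 false calls per set. The simulated libraries shared the same dispersion for each gene, while the weights of the real libraries differed. These rates may therefore not hold for the real fit. Alternatives were other normalizations, filters and tests, the replicate number as a block, and each library left out.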

Additional observations from a re-analysis of the deposited data

Results flagged for a closer look

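Of 23 values tested over the 4 outside libraries (9 members and 14 list sums), 2 held a library far from the other 3, and about 1.15 would do so by chance. The 12 neuronal genes summed to 16.8 CPM in outside graft 1, against 6.05 to 7.29 CPM in the other outside libraries. This library was also the shallowest and had the least weight in the fit. The 8 neutrophil genes summed to 359 CPM in outside graft 3, against 0.311 to 18.1 CPM in the others. Myo5a had 22.6 and 18 CPM in these 2 libraries and stood apart in neither.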

How the results depend on the processing

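The log2 fold change of Myo5a stayed between 1.6 and 1.94 and, with those of Myo1e, Myo1f, Myo9b, Myo6 and Myh9, kept its sign in 16 of 16 alternatives. Myo1g kept it in 12, Myo7a in 14 and Myo10 in 15. The number of genes below an adjusted P of 0.01 (3) and 0.05 (75) depended on the processing, and the cause was not tested. It was 41 and 225 without a filter, 48 and 211 with at least 10 counts in every library, 0 and 15 in edgeR's quasi-likelihood test (1457 genes at an unadjusted P below 0.05, against 1858 in voomWithQualityWeights), 232 and 420 in the DESeq2 Wald test, 1 and 10 in voom without quality weights, and with library size alone 1 gene passed 0.01. With a library left out it ran from 0 to 33 at 0.01 and from 1 to 207 at 0.05. At 0.05 it was 207 when inside graft 2 was left out and 48 when inside graft 3 was. Of the outside libraries, leaving out number 1 gave 36 genes and leaving out number 3 or number 4 gave 1.

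The number of members below 0.05 (1, Myo5a) was 2, with Myo1e, in the DESeq2 Wald test and with at least 10 counts in every library, and ran from 0 to 2 with a library left out. Calm2 was the 1 light chain called without a filter, and Dab2 the 1 Myo6 adaptor called in DESeq2 and with at least 10 counts in every library. Of all genes, 0.762% were called without a filter, 2.75% in DESeq2 and 1.75% with at least 10 counts in every library. The adaptor count ran from 0 to 1 with a library left out.

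With a replicate block, fitted over libraries 1 to 3 of each group, 77 genes passed 0.01, 265 passed 0.05 and 2 members passed 0.05, with a log2 fold change of 1.69 for Myo5a. The numbers were not shown to pair the libraries: same-numbered libraries had correlations of -0.025, 0.076 and 0.046 of their deviations from the group means, and not every library correlated best with its own number. Depth limits Myo5c (2 reads in all) and Myo10 (47 to 69 reads in 6 libraries).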
